A study of Mus musculus with 18 samples.

Results

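Thymocytes that carry CD69 were compared with those that do not, among CD4+CD8+ double-positive (DP) cells of the mouse fetal thymus. The comparison held 6 CD69+ DP arrays and 6 CD69- DP arrays, 12 of the 18 arrays of the series, chosen by their sorted population alone and not by any measured value. On each side 2 arrays came from wild-type (WT) fetuses, 2 from Gli3+/- (HET) and 2 from Gli3-/- (KO) fetuses, at embryonic day 18.5. Gli3 is a transcription factor of the Hedgehog pathway, the mutation was present in every tissue of the mutant fetuses, thymic stroma and thymocytes alike, and the mice had a C57BL/6 background. Fetal thymi were stained for CD4, CD8 and CD69 and the populations were sorted by flow cytometry, with no treatment. The remaining 6 arrays held CD4 single-positive (SP4) cells of the same 3 genotypes. Sample names run across the populations (WT1 and WT2, HET1 and HET2, KO1 and KO2), so each CD69+ array has a CD69- partner of the same name, and these are called the 6 pairs. No source used here tells whether a name stands for 1 fetus or for a pool, so the p-values below measure the spread between these samples.

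A DP thymocyte waits in the thymic cortex with a newly rearranged T-cell receptor (TCR), and most such cells die because no self peptide on MHC engages it. A cell whose TCR is engaged with moderate strength is positively selected: it signals through calcium, ERK and NF-kB, displays CD69 on its surface, ends rearrangement of its TCR alpha genes, becomes long-lived and moves on to the CD4 or the CD8 lineage. CD69- DP cells thus stand mostly before this signal and CD69+ DP cells after it. Among DP cells some are still dividing, since DP cells arise from a burst of proliferation that ends before selection.

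RNA was hybridised to Mouse Gene 2.0ST arrays (Affymetrix), and values are normalised intensities on a linear scale, comparable between arrays for 1 gene and not between genes. Differences are log2 intensities in CD69+ minus CD69- DP cells, so that +1 is a doubling, and this difference is also called the step. They come from a limma model with genotype and replicate number as blocks, fitted to 22180 genes, and a gene was called where its p, adjusted after Benjamini and Hochberg across the whole set, was under 0.05. In a sorted population a change in RNA per cell and a change in the share of cells that express a gene cannot be told apart. The medians of the 12 arrays lay between 59.9 and 65.8, correlations between arrays lay between 0.963 and 0.990, and no pair of arrays was identical (0 pairs). *Gli3* was dim, at 29.4 to 37.1 on the WT, 30.8 to 32.9 on the HET and 27.9 to 32.7 on the KO arrays of DP cells, and where its probes lie relative to the mutation is unknown here, so these levels check nothing about genotype. Arrays of replicate number 1 stood apart from those of number 2 on both sides of the sort. The number was set as a block when the comparison was laid out, and the step within each number is given further on.

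Where 3 intensities are given for a side, they are the lowest, the median and the highest of its 6 arrays. The sort was visible in the gene it used, as *Cd69* was 92.0, 156 and 220.3 on the CD69- arrays and 675, 1060.4 and 1416 on the CD69+ arrays (log2 +2.78, SE 0.24, adjusted p = 4.31e-06). The sides did not overlap, but as the gate was set on the protein this is a check of the labels and no result. Both sides carried the defining genes of DP cells: *Cd8a* was 3822, 4406 and 4483 in CD69- DP and 2951, 3543 and 4101 in CD69+ DP cells, and *Cd4* was 1396, 1706 and 1804 in CD69- DP and 897, 1068 and 1257 in CD69+ DP cells. *Rag2*, which cuts DNA for TCR rearrangement and marks the DP stage, stayed well above the median row of the array (63.0) on each of the 12 arrays. *Cd5*, *Nr4a1* and *Egr2*, which report TCR signalling, did not overlap between the sides either and are described below.

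Between CD69- and CD69+ DP cells 3081 of the 22180 genes changed, 13.9%, and of these 1229 were higher (5.54%) and 1852 lower (8.35%) in CD69+ DP cells. The rises were fewer, and only the largest of them went further than the falls, while the medians were of similar size. Of the higher genes 103 rose at least 2-fold and 19 at least 4-fold (median log2 +0.39), whereas of the lower genes 163 fell at least 2-fold and 0 at least 4-fold (median log2 −0.41). Most moved the same way throughout: 1021 of the 1229 were higher and 1623 of the 1852 lower in 6 of 6 pairs. The 6 arrays of each side did not overlap for 1303 genes, 5.87% of those tested (579 higher, 2.61%, and 724 lower, 3.26%). Of the 163 genes at least 2-fold lower, 27 were among the 29 measured genes of a mitosis list, 10 among 27 of a DNA replication list and 3 among 21 of a G1 list. The gene lists here and below were written with earlier results of these data known, so counts of their members describe and test nothing. Some lists share members. The shares above, 5.54% higher and 8.35% lower, are those to set beside each list count of this comparison. With only the 11548 genes at or above the median row fitted, 1177 were higher and 2007 lower. Most members of most lists are among these genes.

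**Figure D1:**
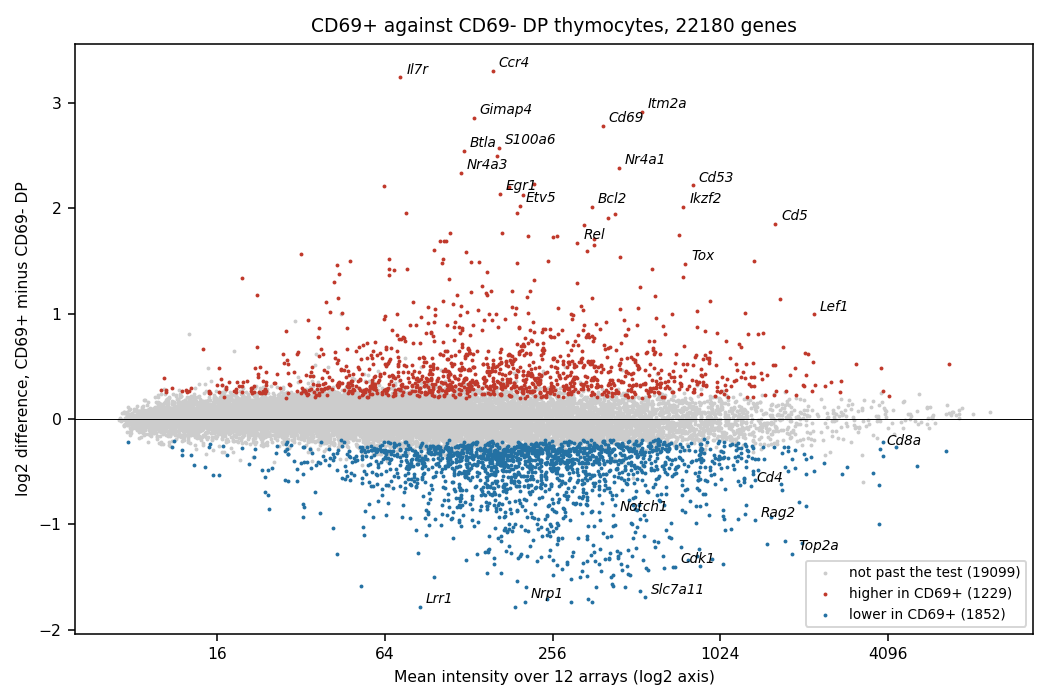
Each point is 1 of 22180 genes, with its mean intensity over the 12 arrays on a log2 axis and its log2 difference, CD69+ minus CD69- DP, on the vertical axis; red and blue points passed the test (1229 higher, 1852 lower). The rises reach further from 0 (up to +3.31, *Ccr4*) than the falls (down to −1.78, *Lrr1*).

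Transcription factors induced by TCR signalling rose almost as a block. Of the 13 measured members of a list of these factors, 11 rose, 0 fell and 2 did not pass, where 5.54% of all genes tested rose. Their median log2 was +0.74, beside +0.01 over all genes tested. *Nr4a1* (Nur77), an orphan nuclear receptor whose level follows the strength of the TCR signal, was 170.0, 197 and 214 on the CD69- arrays and 761, 987 and 1501 on the CD69+ arrays (log2 +2.38, SE 0.12, adjusted p = 2.42e-08). The lowest CD69+ array was 3.57 times the highest CD69- array. Its relative *Nr4a3* went from 51.3, 53.0 and 55.9 to 176, 264 and 479.8 (log2 +2.34, SE 0.17, adjusted p = 7.89e-07), again with the sides apart, and the third member, *Nr4a2*, rose by less (log2 +0.63, adjusted p = 0.00629).

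The early growth response factors are zinc finger proteins that ERK signalling switches on, and *Egr1* and *Egr2* are needed for efficient positive selection. *Egr1* was 62.6, 82.4 and 91.1 in CD69- DP and 291, 323 and 521 in CD69+ DP cells (log2 +2.14, SE 0.09, adjusted p = 1.84e-08). *Egr2* was 128, 138 and 172 in CD69- DP and 367, 465 and 813 in CD69+ DP cells (log2 +1.74, SE 0.14, adjusted p = 2.16e-06). Neither overlapped, and the highest CD69+ array of both was WT replicate 1 (*Egr2* 813, *Egr1* 521). *Egr3* rose by less (log2 +0.60, SE 0.11, adjusted p = 0.00149), as did *Nab1* and *Nab2*, co-repressors that bind Egr proteins and restrain them (log2 +0.63 and +0.74). *Ikzf2* (Helios), an Ikaros family factor that strong TCR signals induce in thymocytes, rose from 339.8, 382 and 406 to 1041, 1564 and 2023 (log2 +2.01, SE 0.10, adjusted p = 3.37e-08). *Myc*, which drives growth, rose by log2 +1.05 (adjusted p = 1.21e-04), and *Irf4*, a factor graded by TCR strength, by +0.59 (adjusted p = 0.00238).

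Genes that ERK induces, most of which limit its signal, rose too, 8 of 11 with 0 falling (median log2 +0.45). *Etv5*, an ETS factor downstream of ERK, was 86.9, 89.4 and 125 in CD69- DP and 327, 397 and 476 in CD69+ DP cells (log2 +2.02, SE 0.10, adjusted p = 2.00e-08), and *Dusp6*, the phosphatase that removes phosphate from ERK, 334, 645 and 892 in CD69- DP and 1041, 1216 and 1328 in CD69+ DP cells (log2 +1.03, SE 0.16, adjusted p = 4.63e-04). Both were separate between the sides. *Dusp2* and *Spry2*, a nuclear phosphatase of the same family and an inhibitor of receptor signalling, rose by log2 +0.57 and +0.50. By comparison, of 16 immediate early and stress genes, which handling of cells can also induce, 4 rose and 0 fell (median log2 +0.16). Their summed intensity lay between 3772 and 4062 on replicate 1 and between 6123 and 7250 on replicate 2 of the CD69- arrays, and between 3380 and 3994 and between 7227 and 8343 on the CD69+ arrays. It thus followed the replicate number more than the CD69 sort, and its part in the rise of the other factors was not tested.

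NF-kB genes moved with less uniformity, 6 of 11 rising and 1 falling (median log2 +0.29), where 5.54% and 8.35% of all genes did. *Rel*, the NF-kB subunit most tied to lymphocyte activation, rose from 147, 180.3 and 194 to 389.6, 550.2 and 811 (log2 +1.67, SE 0.12, adjusted p = 7.89e-07), with no overlap. *Nfkb2*, which encodes a subunit precursor, and *Nfkbid*, an atypical inhibitor of the pathway, rose by log2 +0.89 and +0.78, and the inhibitor *Nfkbie* fell by 0.39 on the log2 scale. Of 15 genes of calcium signalling 6 rose and 2 fell (median log2 +0.19): *Nfatc1*, which is itself an NFAT target, rose by log2 +0.85 and *Orai1*, a calcium channel subunit, by +0.67, while *Nfatc3* fell by 0.52. Among 22 genes of the proximal TCR machinery 10 rose and 4 fell (median log2 +0.20), led by *Fyn*, a Src family kinase, at log2 +0.80 (adjusted p = 3.65e-06).

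Promoters of 3 induced factors are shown because they hold binding motifs of the pathways named above. They are RefSeq sequences of GRCm38.p6, read 5′ to 3′ on the strand of the gene and ending at the base before the annotated start. In *Egr2* (chr10:67537446-67537565, plus strand) capitals mark a CArG box, the motif of serum response factor, 63 to 72 bases before the start. In *Rel* (chr11:23770970-23771089, minus strand) they mark overlapping matches to the NF-kB site, 82 to 92 bases before the start. In *Nr4a1* (chr15:101266596-101266845, plus strand) they mark an Egr motif on the opposite strand, 52 to 60 bases before it.
Egr2: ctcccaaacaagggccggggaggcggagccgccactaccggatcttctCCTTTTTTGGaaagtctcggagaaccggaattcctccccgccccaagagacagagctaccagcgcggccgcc
Rel: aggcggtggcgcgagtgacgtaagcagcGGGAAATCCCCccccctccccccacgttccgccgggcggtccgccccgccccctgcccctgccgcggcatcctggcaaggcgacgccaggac
Nr4a1: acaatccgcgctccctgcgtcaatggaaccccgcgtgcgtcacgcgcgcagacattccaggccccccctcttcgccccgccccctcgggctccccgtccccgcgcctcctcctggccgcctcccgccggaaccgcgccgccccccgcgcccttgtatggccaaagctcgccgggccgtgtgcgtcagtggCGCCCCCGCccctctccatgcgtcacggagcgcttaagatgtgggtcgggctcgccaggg
Motifs were counted on both strands in the RefSeq windows from 250 bases before to 50 bases after a start. Windows were matched for 16990 of the 22180 genes (20611 windows), for 79 of the 103 genes at least 2-fold higher (103 windows) and for 127 of the 163 at least 2-fold lower (140 windows). A CArG box was in 5.83% of the windows of higher genes, 2.14% of those of lower genes and 1.45% of all. The Egr motif, GCGTGGGCG or GCGGGGGCG, was in 9.71%, 1.43% and 4.73%. The NF-kB site was in 1.94%, 5% and 4.82%, and the E box CAGCTG, which E proteins bind, in 22.3%, 13.6% and 16.2%. These shares describe letters in a window and not occupied sites. A gene with several starts has several windows.

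**Figure D2:**
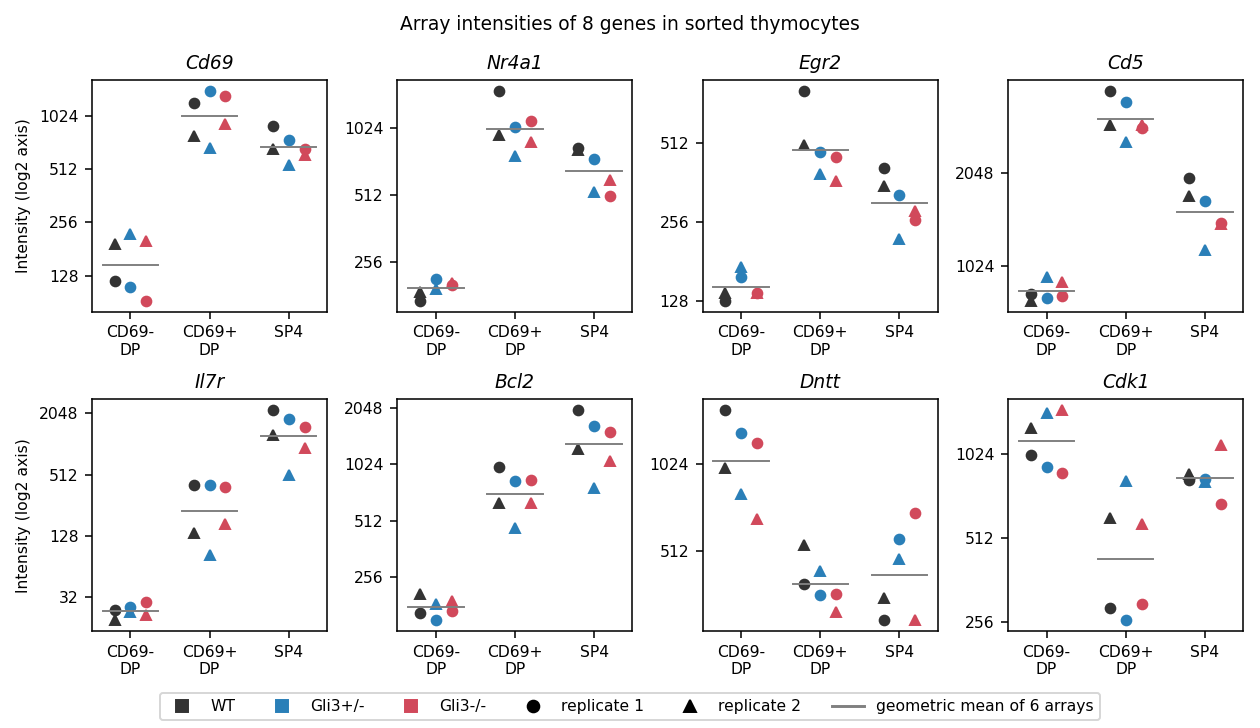
Intensity on a log2 axis of 8 genes on each of the 18 arrays, by sorted population, with genotype as colour, replicate number as shape and the geometric mean of 6 arrays as a line; SP4 cells are shown beside the DP comparison. *Nr4a1*, *Egr2* and *Cd5* are higher on each CD69+ than on each CD69- array with lower means in SP4 cells, whereas the means of *Il7r* and *Bcl2* are highest in SP4 cells.

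Surface receptors tied to selection rose as well. *Cd5*, a negative regulator of the TCR set by signal strength, had a lowest, median and highest intensity of 787, 825 and 943 on the CD69- and 2580.0, 2908 and 3762 on the CD69+ arrays (log2 +1.85, SE 0.09, adjusted p = 2.83e-08). *Il7r*, the receptor chain for interleukin 7, which keeps maturing T-cells alive and is shut off in resting DP cells, went from 19.1, 23.8 and 29.0 to 83.9, 278 and 408 (log2 +3.24, SE 0.22, adjusted p = 4.70e-07). Its CD69+ arrays spread widely, with 408, 404 and 388 in replicate 1 and 138, 83.9 and 169 in replicate 2 (WT, HET and KO). All of these lay above the CD69- arrays. Of 15 surface genes tied to selection 10 rose and 1 fell (median log2 +0.81), *Cd53* (a tetraspanin) by log2 +2.22, *Cd2* (an adhesion receptor) by +1.50 and *Cd6* (a relative of *Cd5*) by +0.96.

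Among 10 chemokine receptors 4 rose and 1 fell (median log2 +0.22), where 5.54% and 8.35% of all genes did. *Ccr4*, which draws selected thymocytes towards the medulla, had the largest rise of any named gene, from 41.1, 48.7 and 57.4 to 277, 509 and 796 (log2 +3.31, SE 0.15, adjusted p = 1.84e-08), and its lowest CD69+ array was 4.84 times its highest CD69- array. *Ccr8* and *Ccr9* rose by log2 +1.52 and +0.52. *Cxcr4*, which holds immature thymocytes in the cortex, was 1139, 1355 and 1515 in CD69- DP and 790.2, 1079.9 and 1227 in CD69+ DP cells and fell by 0.40 on the log2 scale (adjusted p = 0.0155). It did not pass within replicate 2 arrays alone (log2 −0.24) or without the KO arrays (log2 −0.32). *Ccr7*, the medullary homing receptor of mature cells, had medians of 128 in CD69- DP and 168 in CD69+ DP cells, with overlapping arrays, and did not pass (log2 +0.25, SE 0.16, adjusted p = 0.384), with a step of +0.65 in replicate 1 and −0.14 in replicate 2 arrays. *S1pr1*, the exit receptor, was 44.4, 53.1 and 65.7 in CD69- DP and 48.2, 60.7 and 65.4 in CD69+ DP cells and did not pass either (adjusted p = 0.528). The chemokine *Xcl1*, which attracts dendritic cells, rose from 66.5, 86.3 and 104 to 286, 367 and 554 (log2 +2.21, SE 0.11, adjusted p = 2.42e-08).

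Receptors that tune activation rose on balance, 9 of 15 with 2 falling (median log2 +0.81). *Btla*, an inhibitory receptor, led them, from 38.2, 52.4 and 66.5 to 152, 333 and 477 (log2 +2.55, SE 0.21, adjusted p = 2.51e-06), followed by *Cd226* at log2 +1.96, *Cd40lg* at +1.30, *Icos* at +0.90, *Pdcd1* (PD-1) at +0.90, *Cd28* at +0.84 and *Cd27* at +0.81. *Slamf6*, through which DP cells contact one another, fell by 0.58 on the log2 scale (adjusted p = 9.97e-05). *Cd28*, *Cd27* and *Slamf6*, and *Il7r* in the next list, also stand in the list of surface genes tied to selection. Of 17 cytokine receptor and *Socs* genes 6 rose and 5 fell (median log2 +0.11). Beside *Il7r* the shared chain *Il6st* rose by log2 +0.87 and, outside the list, the interleukin 25 receptor chain *Il17rb* by +1.95, and *Socs3*, an inhibitor of cytokine signalling, fell by 0.42 (adjusted p = 0.00811).

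The survival genes moved in opposite directions within 1 family. *Bcl2*, which blocks mitochondrial death and is low in DP cells, rose from 150.4, 176 and 207 to 466, 738 and 987 (log2 +2.01, SE 0.14, adjusted p = 5.40e-07). *Bcl2l1* (Bcl-xL), the survival protein of DP cells, was 371, 415 and 471 in CD69- DP and 194, 268 and 349 in CD69+ DP cells and fell by 0.67 on the log2 scale (SE 0.12, adjusted p = 0.00168). *Bcl2l11* (Bim), the killer of thymocytes that signal too strongly, rose with *Bcl2*, from 178, 202 and 213 to 348, 505 and 648 (log2 +1.30, SE 0.13, adjusted p = 1.11e-05). None of the arrays overlapped for *Bcl2* or *Bcl2l11*. Over the 14 members of the family 2 rose and 3 fell (median log2 +0.01), and the other 9 did not pass. Of all genes tested 5.54% rose and 8.35% fell.

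Of the other genes with large rises, *Itm2a*, a membrane protein of activated thymocytes, went from 163, 189.8 and 257 to 810.2, 1572 and 2263 (log2 +2.92, SE 0.22, adjusted p = 1.61e-06), and *S100a6*, a calcium-binding protein, from 46.7, 70.5 and 103 to 304, 393 and 571 (log2 +2.57, SE 0.12, adjusted p = 2.00e-08). *Gimap4* rose by log2 +2.86. It belongs to a family of GTPases of lymphocyte survival, of which 6 of 8 rose and 0 fell (median log2 +0.48), *Gimap6* by log2 +0.81. *Gpr174* and *P2rx7*, receptors for a lysophospholipid and for extracellular ATP, rose by log2 +2.50 and +1.95, and *Sh3bp2*, a signalling adaptor, by +2.12. For all of these the sides did not overlap.

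Lineage factors changed selectively. Of 10 genes of the CD4 lineage 5 rose and 1, the co-receptor *Cd4* itself, fell (median log2 +0.20), where 5.54% and 8.35% of all genes did. *Tox*, a nuclear HMG-box protein required for CD4 T-cells to form, was 433, 469 and 479 in CD69- DP and 1023, 1281 and 1478 in CD69+ DP cells (log2 +1.47, SE 0.08, adjusted p = 3.49e-08), *Lef1*, an HMG-box partner of beta-catenin, 1385, 1601 and 1788 in CD69- DP and 2581, 3111 and 3862 in CD69+ DP cells (log2 +0.99, SE 0.08, adjusted p = 2.33e-06), and *Gata3*, which promotes CD4 commitment, 209, 248 and 285 in CD69- DP and 395, 412 and 597 in CD69+ DP cells (log2 +0.85, SE 0.10, adjusted p = 5.78e-05). The sides were separate for each of the 3. *Zbtb7b* (ThPOK), the factor that fixes the CD4 fate, was 53.6, 64.7 and 80.7 in CD69- DP and 65.2, 69.3 and 75.5 in CD69+ DP cells and did not pass (log2 +0.10, SE 0.09, adjusted p = 0.577). The range of its CD69+ arrays lay within that of its CD69- arrays. On the CD8 side 4 of 10 genes rose and 3 fell (median log2 0.00). *Runx3*, which sets the CD8 fate, rose from 50.8, 64.9 and 77.5 to 79.0, 91.4 and 100.4 (log2 +0.51, SE 0.09, adjusted p = 0.00122), with *Klrd1* and *Nkg7*, genes of killer cells, at log2 +1.02 and +0.94.

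The co-receptor genes themselves were lower in CD69+ DP cells, *Cd4* by 0.63, *Cd8a* by 0.29 and *Cd8b1* by 0.35 on the log2 scale (adjusted p = 6.30e-04, 0.0252 and 0.0125). CD4 and CD8 proteins were part of the gate on both sides, so these values describe the sorted cells. *Cd4* did not pass within replicate 2 arrays alone (log2 −0.35, adjusted p = 0.0586), nor did *Cd8a* and *Cd8b1* (log2 −0.13 and −0.12). *Cd8a* and *Cd8b1* did not pass in the fit of all 18 arrays (adjusted p = 0.227 and 0.0551) or without the arrays of any 1 genotype either (0.086 to 0.124 and 0.0575 to 0.0807), and *Cd8a* did not pass without the replicate block (0.0549). *Cd8a* also no longer passed without any 1 of 5 arrays (WT replicate 1, HET replicate 2 or KO replicate 1 of CD69- DP, HET or KO replicate 1 of CD69+ DP), at log2 −0.29 to −0.23.

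E proteins keep DP cells in place and Id proteins hold them back. Of 6 genes of both kinds 2 rose and 1, the E protein *Tcf12*, fell (log2 −0.29, adjusted p = 0.017; list median log2 −0.04). *Tcf12* did not pass without the WT or the HET replicate 1 array of CD69- DP (log2 −0.26 and −0.27), without any 1 genotype, within replicate 2 arrays alone (log2 −0.12) or in the fit of all 18 arrays. The 2 that rose were *Id2* from 64.2, 100.4 and 189.5 to 196, 247 and 274 (log2 +1.22, SE 0.20, adjusted p = 7.81e-04) and *Id3* from 72.7, 129 and 181 to 152, 248 and 376 (log2 +0.95, SE 0.17, adjusted p = 0.00138). For *Id3* the sides overlapped, and *Id1* did not pass (log2 −0.20, adjusted p = 0.148).

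Genes of the DP stage fell together, 13 of 14 with 0 rising (median log2 −0.79). Their median was −1.11 in replicate 1 and −0.41 in replicate 2 arrays. For 6 of the 14 the step differed between the replicate numbers, as it did for 1.1% of all genes tested. Among the 13 that fell are *Cd8a*, *Cd8b1*, *Tcf12* and *Bcl2l1*, already given above. Each of these lost its call under some settings. *Dntt*, the polymerase that adds bases at TCR junctions, was 660.5, 1106 and 1585 in CD69- DP and 312, 377 and 538 in CD69+ DP cells (log2 −1.42, SE 0.15, adjusted p = 1.70e-05). *Rag2* was 1595, 1920.5 and 2121 in CD69- DP and 623, 1004 and 1679 in CD69+ DP cells (log2 −0.96, SE 0.14, adjusted p = 2.35e-04). Its sides overlapped by the WT replicate 2 CD69+ array, at 1679. *Slc7a11*, a cystine transporter, fell from 805, 967 and 1213 to 137, 294 and 615 (log2 −1.69, SE 0.25, adjusted p = 2.40e-04), with 137, 205 and 228 on the replicate 1 CD69+ arrays. *Ptcra*, the pre-TCR chain of an earlier stage, fell by 0.75, *Ets2* by 0.83 and *Arpp21* by 0.92 on the log2 scale. *Arpp21* did not pass within replicate 2 arrays alone (log2 −0.32). *Ptcra* is also a member of the Notch list that follows. Of 10 Notch genes, which act before the DP stage, 6 fell and 0 rose (median log2 −0.39), and *Notch1* was 506, 575 and 670.0 in CD69- DP and 211, 322 and 459 in CD69+ DP cells (log2 −0.91, SE 0.12, adjusted p = 1.01e-04). *Nrp1*, a semaphorin receptor, fell by more, from 316, 374 and 439.5 to 61.6, 109.7 and 219 (log2 −1.73, SE 0.14, adjusted p = 2.16e-06), without overlap.

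**Figure D3:**
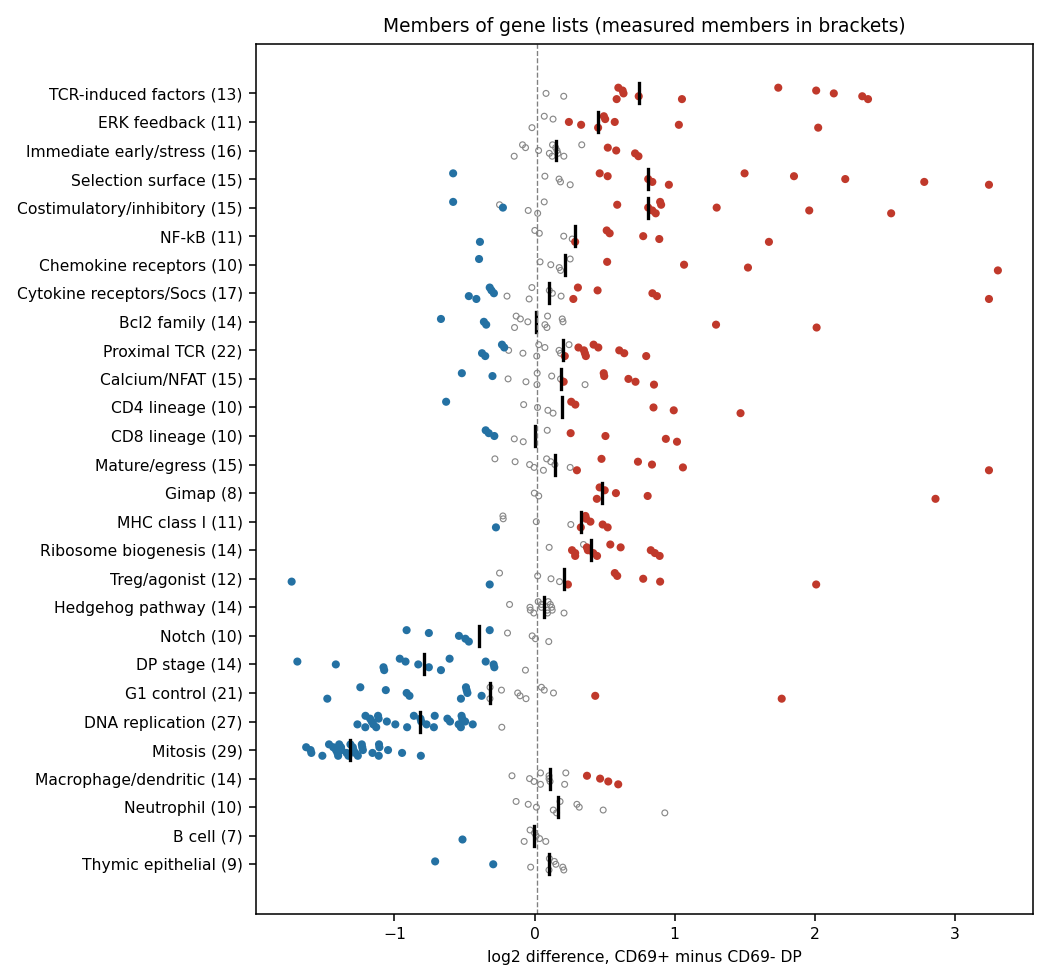
Log2 difference, CD69+ minus CD69- DP, of each measured member of 28 gene lists; filled points passed the test (red higher, blue lower), open points did not, black bars are list medians and the dashed line is the median of all genes. DP stage, DNA replication and mitosis members lie to the left of 0, while the TCR-induced, surface and costimulatory lists lie mostly to the right.

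Cell cycle genes fell in CD69+ DP cells. All 29 mitosis genes measured fell (median log2 −1.31), where 8.35% of all genes did, each in 6 of 6 pairs, and for 13 of the 29 the sides did not overlap (3.26% of all genes were lower without overlap). *Cdk1*, the kinase that starts mitosis, was 873, 1147 and 1474 on the CD69- and 259.7, 436 and 823 on the CD69+ arrays (log2 −1.41, SE 0.13, adjusted p = 5.46e-06). *Mki67*, the proliferation marker Ki-67, was 2189, 2651 and 2902 in CD69- DP and 581, 1234 and 2269 in CD69+ DP cells (log2 −1.16, SE 0.19, adjusted p = 7.00e-04), with an overlap of its sides. *Top2a*, the topoisomerase of dividing cells, fell by 1.28 on the log2 scale. Of 27 DNA replication genes 26 fell and 0 rose (median log2 −0.81), but the sides were apart for 5 of them. *Rrm2*, a subunit of the enzyme that makes deoxynucleotides, fell by 1.17 and *Pcna*, the sliding clamp, by 0.52 on the log2 scale (adjusted p = 1.24e-04 and 1.76e-04).

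*Nrp1* and *Slc7a11* stood among the 20 named genes with the largest fall, and most of the others serve replication, chromosome segregation or cytokinesis. *Lrr1*, which helps unload the replication helicase, fell most, from 114, 162 and 209 to 30.5, 40.7 and 101 (log2 −1.78, SE 0.14, adjusted p = 1.70e-06). *Gmnn* (geminin), which prevents a second round of replication, went from 394, 567 and 796 to 139.9, 177 and 390.4 (log2 −1.49, SE 0.15, adjusted p = 1.12e-05), without overlap, and *Esco2*, which joins sister chromatids, from 244, 349 and 481 to 55.5, 106 and 223 (log2 −1.78, SE 0.17, adjusted p = 9.19e-06). The kinetochore and spindle genes *Ndc80*, *Bub1*, *Kif18a*, *Kif14*, *Kif15*, *Cenpk*, *Cenpp* and *Hmmr* fell by 1.48 (*Kif15*) to 1.71 (*Cenpk*) on the log2 scale. *Shcbp1*, *Ect2*, *Anln* and *Cip2a*, with roles in cytokinesis or mitosis, fell by 1.74, 1.60, 1.51 and 1.59, and *Depdc1a*, the mitotic kinase *Pbk* and the centriole gene *Stil* by 1.74, 1.57 and 1.48 on the log2 scale. For *Shcbp1*, *Ndc80*, *Stil* and *Kif15* the sides overlapped. G1 genes were mixed, 2 of 21 rising and 10 falling (median log2 −0.32): *E2f8*, an atypical E2F that represses other E2F targets, fell by 1.48, whereas *Ccnd2*, the cyclin that links receptor signals to G1, rose from 50.5, 59.7 and 73.2 to 144, 199.5 and 286 (log2 +1.76, SE 0.12, adjusted p = 7.16e-07). Genes of ribosome production rose, 12 of 14 with 0 falling (median log2 +0.40), led by *Gnl3* at log2 +0.89 (adjusted p = 3.99e-04).

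The promoters of 3 of the falling genes are shown because they hold matches to motifs known from genes of late cell cycle, of which *Ccnb2* holds CCAAT boxes alone among the motifs marked. Capitals mark the CCAAT box (CCAAT, or ATTGG on the opposite strand), the cell cycle homology region (CHR, TTTGAA) and an E2F site (TTGGCGC), in RefSeq sequence of GRCm38.p6 on the strand of the gene and up to the base before the start. *Cdk1* (chr10:69352913-69353102, minus strand) holds 2 CHR matches, 2 CCAAT boxes and 1 E2F site, *Mki67* (chr7:135716380-135716579, minus strand) 2, 3 and 1. *Ccnb2* (chr9:70421555-70421664, minus strand), the mitotic cyclin B2, which fell by 1.33 on the log2 scale (adjusted p = 1.63e-04), holds 3 CCAAT boxes in its 110 bases.
Cdk1: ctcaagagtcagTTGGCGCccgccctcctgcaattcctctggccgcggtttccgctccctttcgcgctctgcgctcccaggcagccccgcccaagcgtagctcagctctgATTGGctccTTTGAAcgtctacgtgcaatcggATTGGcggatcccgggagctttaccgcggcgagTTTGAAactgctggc
Ccnb2: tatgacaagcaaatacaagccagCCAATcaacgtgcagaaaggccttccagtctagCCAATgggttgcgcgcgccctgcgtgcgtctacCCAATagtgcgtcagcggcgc
Mki67: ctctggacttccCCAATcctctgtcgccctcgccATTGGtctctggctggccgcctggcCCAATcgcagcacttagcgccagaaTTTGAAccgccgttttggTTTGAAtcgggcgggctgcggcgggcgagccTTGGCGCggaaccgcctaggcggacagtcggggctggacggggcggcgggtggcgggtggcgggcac
The CHR was in 44.3% of the windows of genes at least 2-fold lower, in 17.5% of those at least 2-fold higher and in 15.4% of all. The CCAAT box was in 62.1%, 35.9% and 37.7%, and the E2F site in 14.3%, 1.94% and 3.09%. Where a CCAAT box on the opposite strand is followed by CGC, the same letters also make an E2F site. No test was run on these shares, as the genes had been chosen by their change.

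Markers of other cells were measured beside these genes. Of 14 macrophage and dendritic markers 4 rose and 0 fell (median log2 +0.11), and their summed intensity was 809 to 888 on the CD69- arrays and 912 to 1082 on the CD69+ arrays. These were *Lyz2* at 21.9, 30.2 and 40.7 in CD69- DP and 35.4, 41.7 and 72.1 in CD69+ DP cells (adjusted p = 0.0111), *H2-Ab1*, *H2-Aa* and *C1qb* (log2 +0.53, +0.47 and +0.37), and the other 10 did not pass. Of 10 neutrophil markers 0 passed (median log2 +0.17), and their sum was 360 to 387 on the CD69- arrays and 374 to 771 on the CD69+ arrays, with HET replicate 1 the highest. No erythroid, endothelial or mesenchymal marker passed (0 of 3, 0 of 6 and 0 of 6), 1 of 7 B cell markers fell and 2 of 9 thymic epithelial markers fell. Over all genes tested 5.54% rose and 8.35% fell. Only 5 of the 14 macrophage and dendritic and 2 of the 10 neutrophil markers reached the median row of the array. Of the other lists 2 erythroid, 1 endothelial, 4 mesenchymal, 1 B cell and 5 thymic epithelial markers did. Counts from dim markers do not show that these cells were absent. The part of these cells in the results above was not tested.

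The size of the step differed between the replicate numbers. In replicate 1 arrays 2703 genes changed and in replicate 2 arrays 1804, and the step itself differed between the numbers for 244 genes, 1.1% of those tested. Of these 222 had the larger step in replicate 1, 75 of them higher and 147 lower in CD69+ DP cells. Over all called genes the median log2 was +0.47 in replicate 1 and +0.34 in replicate 2 for the higher ones, and −0.47 and −0.38 for the lower ones. The gene of the sort moved with them: *Cd69* stepped by log2 +3.62 and +1.94 (adjusted p of the difference = 0.00137). Its replicate 1 arrays were both lower on the CD69- side (119, 111 and 92.0, against 192, 220.3 and 202 in replicate 2) and higher on the CD69+ side (1204, 1416 and 1329.8, against 783, 675 and 917).

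*Itm2a* stepped by log2 +3.70 and +2.14 in replicates 1 and 2 (adjusted p = 0.00137), *Il7r* by +3.93 and +2.56 (0.0176), *Nr4a3* by +2.89 and +1.79 (0.00866) and *Bcl2l11* by +1.69 and +0.90 (0.0176). Among cell cycle genes 21 of 29 mitosis genes passed this test, *Ndc80* at log2 −2.34 and −0.93 (adjusted p = 0.00342) among them. The summed intensity of the mitosis list was 6899 to 7460 on the replicate 1 and 16068 to 22736 on the replicate 2 CD69+ arrays, beside 22664 to 27611 and 30629 to 31778 on the CD69- arrays. A number of the strongest genes were not shown to differ, *Nr4a1* with +2.62 and +2.14 (adjusted p = 0.291), *Egr1* with +2.22 and +2.05 (0.747), *S100a6* with +2.41 and +2.74 (0.572), *Lef1* with +1.01 and +0.98 (0.961) and *Lrr1* with −1.98 and −1.59 (0.542). On the first principal component of the 12 arrays (30.9% of the variance) the replicate 1 CD69+ arrays lay at one end and the replicate 2 CD69- arrays at the other.

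**Figure D4:**
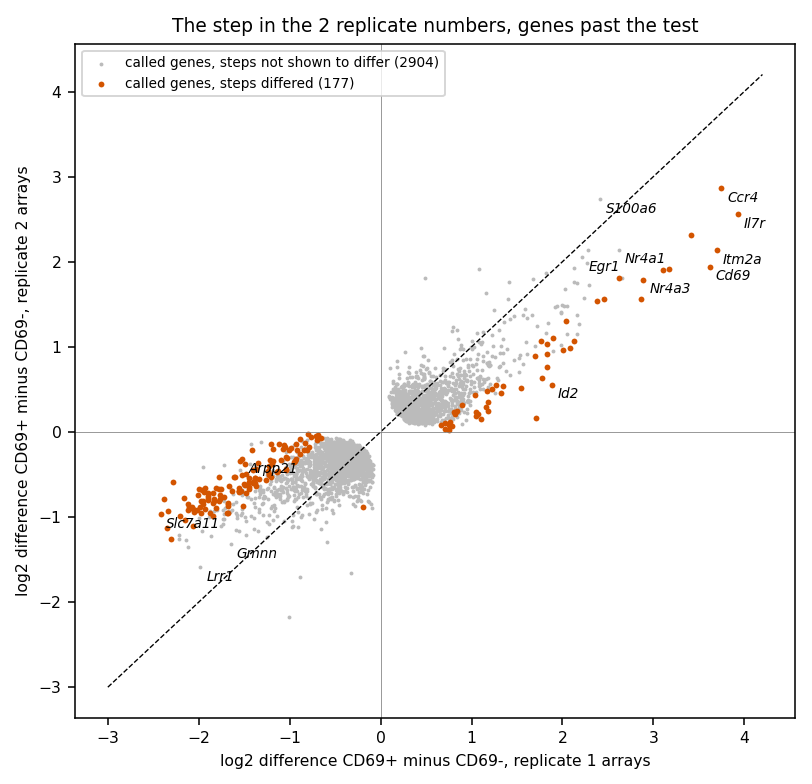
Log2 difference, CD69+ minus CD69- DP, in the replicate 1 arrays (horizontal) and the replicate 2 arrays (vertical) of the genes that passed the main test, with the line of equality dashed; orange points are genes whose steps differed between the numbers. Most orange points lie further from 0 in replicate 1, *Cd69* at +3.62 and +1.94.

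The step was seen in each genotype, and no gene was shown to take it differently in mutants. Within WT, HET and KO 832, 369 and 591 genes passed (3.75%, 1.66% and 2.66% of those tested), each on 4 arrays. These counts were 106, 27 and 53 without the replicate block and 551, 164 and 337 with the pairs as the block. Differences of the step between KO and WT, HET and WT, and KO and HET passed for 0, 0 and 0 genes by limma (719, 588 and 599 at an unadjusted p under 0.05), so these counts do not show that the genotypes differ. Across genes, which are not independent replicates, the steps of different genotypes had Pearson correlations of 0.725 to 0.751. *Egr2* stepped by log2 +2.27 in WT, +1.38 in HET and +1.57 in KO. Its KO minus WT difference was −0.70 (unadjusted p = 0.0176, adjusted p = 1). *Nr4a1* stepped by +2.74, +2.12 and +2.27 (difference −0.47, unadjusted p = 0.0824) and *Cd5* by +2.03, +1.78 and +1.74 (difference −0.29, unadjusted p = 0.238). *Tox* and *Bcl2* had near values in the 3 genotypes, +1.54, +1.37 and +1.50 for *Tox* and +2.10, +1.91 and +2.03 for *Bcl2*. Each genotype had 2 arrays per side, and a difference that did not pass does not show that the steps were alike.

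Of 14 genes of the Hedgehog pathway, in which *Gli3* acts, 0 passed in the comparison of CD69+ with CD69- DP cells (median log2 +0.07). Of all genes tested 13.9% passed. Only 6 of the 14 genes reached the median row of the array, so their count does not show that the pathway was unchanged. Of 4 sex-linked genes 0 passed. Their summed intensity was 1635 on the CD69- and 1340 on the CD69+ array of WT replicate 1, and 3655 to 4816 on the other arrays. The sum joins *Xist*, an RNA of female cells, with the Y-linked *Eif2s3y*, *Kdm5d* and *Uty*. It does not by itself tell the sex of a sample. The SE of the log2 difference was 0.74 for *Xist*. The part of sex in the values of WT replicate 1 was not tested.

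**Figure D5:**
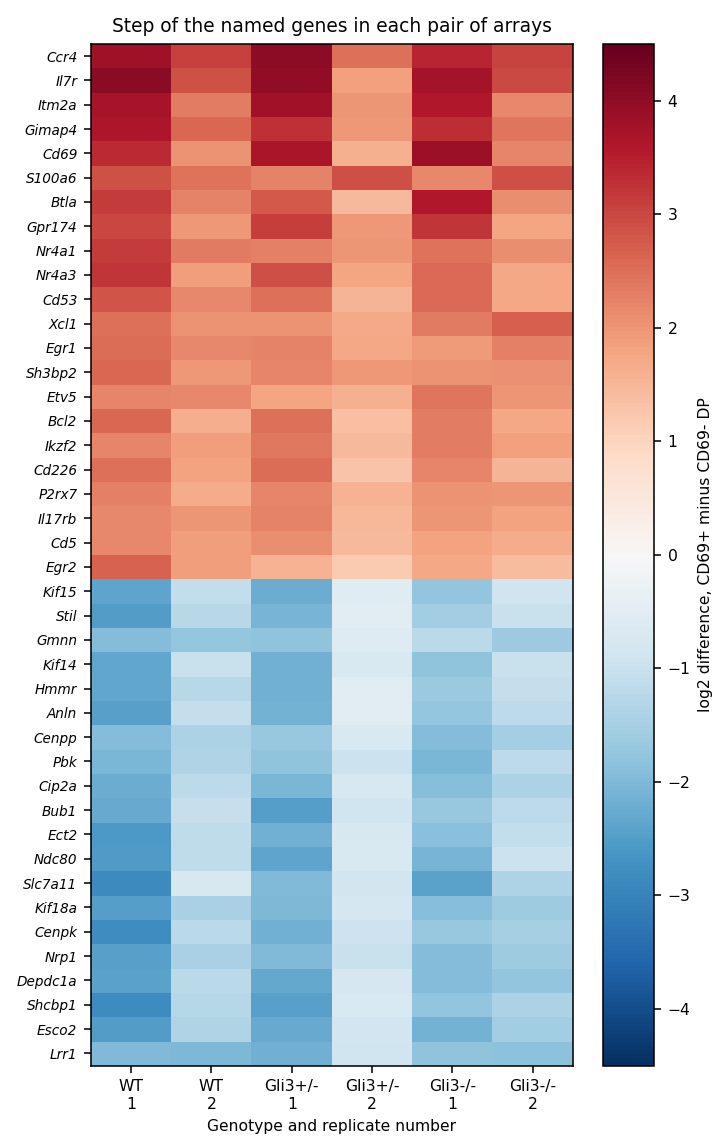
Log2 difference, CD69+ minus CD69- DP, in each of the 6 pairs of arrays for the named genes, as colour (red higher, blue lower). The genes of the largest rise and fall were chosen among those with 1 direction in all pairs, so their shared direction is no result; the replicate 1 columns are mostly deeper in colour than the replicate 2 columns, and HET replicate 2 is the palest.

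The SP4 arrays show which of these levels differed again in the next population. This comparison shares the CD69+ arrays with the first, so values are given side by side. In the fit of all 18 arrays 2879 genes, 13%, differed between SP4 and CD69+ DP cells, with 8.71% of genes tested higher in SP4 cells and 4.27% lower (median log2 over all genes −0.017). Of the 13 TCR-induced factors 6 were lower and 1 higher in SP4 cells, and 6 did not pass (median log2 −0.30). Of genes described above, *Cd5* was 1149.7, 1533 and 1961 there (lowest, median and highest; log2 −1.0 against CD69+ DP, adjusted p = 1.53e-06), *Ikzf2* 692, 808 and 848 (log2 −0.95, 1.35e-06), *Nr4a1* 508, 669 and 829 (log2 −0.62, 0.0019) and *Tox* 588, 851 and 920.5 (log2 −0.69, 1.83e-05). Others were higher still in SP4 cells: *Il7r* was 504, 1368 and 2195 (log2 +2.45, 4.75e-07), *Gimap4* 512, 950.2 and 1523 (log2 +1.36, 1.34e-05), *S100a6* 739.8, 1136 and 2260.4 (log2 +1.61, 8.25e-07) and *Bcl2* 765, 1378 and 1989.6 (log2 +0.87, 4.35e-04). *Rel* at 349, 576 and 861 and *Dntt* at 292, 415 and 695 were not shown to differ (adjusted p = 0.933 and 0.811). *Gimap4* was the 1 gene of its family of 8 to be higher, while 4 were lower. Of the 29 mitosis genes 28 were higher and 0 lower in SP4 than in CD69+ DP cells (median log2 +0.87), and of the 27 DNA replication genes 26 and 0 (median log2 +1.03). Named examples were *Lrr1* at 104, 162 and 194 (log2 +1.76, adjusted p = 9.12e-08), *Cdk1* at 677, 829 and 1101 (log2 +0.97, 1.41e-04) and *Mki67* at 1662, 2090.2 and 2442 (log2 +0.82, 0.00339), so that of the 3 populations CD69+ DP cells held the lowest medians of these 3 genes. Of the 10 Notch genes 8 were higher and 0 lower in SP4 cells (median log2 +0.49). Of 8 markers of thymocytes before the DP stage 4 were higher and 0 lower (+0.34). Macrophage and dendritic markers were higher for 9 of 14 and lower for 1 (+0.38), neutrophil markers for 4 of 10 and 0 (+0.22). B cell, erythroid and mesenchymal markers did not pass. The part of other cells in the SP4 values was not tested.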

How the data were processed

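Sorted CD69- DP and CD69+ DP thymocytes of 3 genotypes were compared on 12 of 18 arrays, grouped by their deposited labels. Deposited values are intensity on a linear scale for 41345 transcript clusters, made by the authors with RMA in the oligo package of R, and the sources used here give neither versions nor the build behind the rows. Background and differences of overall brightness between arrays had thus been removed before deposit, and log2 was taken here with no further normalisation.

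By the annotation of the array platform 23521 rows had a single gene symbol, 1820 had several and 16004 had none. Only those with a single symbol were used, with the row of highest mean where a gene had several (1082 genes), which left 22180 genes. *Rag1*, *Tcf7* and *Lck*, among others, were not analysed here.

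A linear model with genotype and replicate number as blocks was fitted with limma 3.58.1 in R 4.3.3 (7 residual and 7.03 prior degrees of freedom) and moderated by eBayes. It was tested on simulated data, where 100% of the changes of log2 1 were recovered, with 8 false calls among 199. Interactions of the step with genotype and with replicate number were fitted on the same arrays. Replicate deviations of the 6 groups correlated by 0.082 to 0.549 between groups of the same number (14 of 15 pairs over 0.1), and by 0.134, 0.435 and 0.213 within WT, HET and KO. The SP4 values come from a fit of all 18 arrays.

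Genes named are *Cd69*, *Egr2*, *Nr4a1* and *Cd5*, the 20 with the largest rise and the 20 with the largest fall among called genes at or above the median row that moved one way in all 6 pairs (predicted genes and receptor segments left out), and members of 41 gene lists. The comparison, the lists and the tests were chosen with earlier results of these data known. Lists are described by counts and medians, with no set test. Alternatives were other blocks, other normalisation, other filters, and leaving out arrays, genotypes or replicate numbers.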

Additional observations from a re-analysis of the deposited data

Results flagged for a closer look

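Single arrays stood apart from the other 5 of their side for 7 of the genes named here, by a gap test on log2 intensity at its 95% critical value of 0.625, in 250 groups of 6 arrays tested, where chance would set apart about 1 in 20. *Gata3* was 597 on the WT replicate 1 CD69+ array, beside 395 to 453 on the others. *Rrm2* was 2516 on the KO replicate 1 CD69- array, beside 2993 to 3287. *Cd40lg* was 31.8 on the HET replicate 1 CD69- array, beside 24.9 to 27.1. *C1qb* was 73.8 on the KO replicate 1 CD69- array, beside 81.0 to 84.1. *Irf7* was 67.9 on the HET replicate 1 CD69- array, beside 104.6 to 118.8, *Gzmb* 32.4 on the WT replicate 2 CD69- array, beside 39.7 to 42.9, and *Hk2* 69.4 on the KO replicate 1 CD69- array, beside 47.2 to 53.4.

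The difference between CD69+ and CD69- DP cells was itself unlike in the replicate numbers for 244 genes, tested by limma as an interaction of replicate number and CD69 class. In 222 of them the difference was larger in replicate 1, and 177 of the 244 were among the genes called in the comparison over both numbers. The share of cells past each gate was not measured here.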

How the results depend on the processing

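Counts of 1229 higher and 1852 lower genes stayed within 1.5 times of these values under most settings. Without a replicate block they were 878 and 1304, and with the 6 pairs as the block 1148 and 1781. Quantile normalisation gave 1117 and 1901, cyclic loess 1209 and 1830, and all 18 arrays 1204 and 1846. Over every row of the deposited values 1652 and 1924 passed. The methods' moderated t at an unadjusted p under 0.05 gave 2539 and 3035. Leaving out 1 array at a time gave 959 to 1373 higher and 1542 to 1839 lower genes. Within replicate number 1 alone the counts were 1172 and 1432 and within number 2 alone 500 and 954, on 6 arrays each. They were, without WT arrays 760 and 1199, without HET arrays 779 and 1157, and without KO arrays 677 and 1190, on 8 arrays each. Within WT, HET and KO the counts of 832, 369 and 591 became 106, 27 and 53 without the replicate block and 551, 164 and 337 with the pairs as the block. The cause was not tested. Steps differed between genotypes for 0 genes under each of these 3 fits, and between replicate numbers for 300 genes with the pairs as the block, beside 244.

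Of gene lists 31 had a median above 0, 29 after quantile normalisation and 30 after cyclic loess. The median of all genes was +0.01, −0.01 and −0.01. 2 of the named genes turned in direction, both without a call and within replicate number 2 alone, *Ccr7* to log2 −0.14 and *Zbtb7b* to log2 −0.018. *Ccr7* passed within replicate number 1 alone (log2 +0.65) and *Id1* without the HET replicate 1 array of CD69- DP (log2 −0.27). Over the 125 named genes and all settings 68 of 3241 values lost their call, in 28 genes and with no change of direction. 22 of the 68 were within replicate number 2 alone, and 7 were values without 1 array, 5 of *Cd8a* (log2 −0.29 to −0.23) and 2 of *Tcf12* (−0.27 and −0.26). Among the 22 were *Nr4a2*, *Egr3*, *Nfkbie*, *Bcl2l1*, *Socs3*, *Cxcr4*, *Cd4*, *Cd8a*, *Cd8b1*, *Id2* and *Arpp21*. The others of the 22 were *Lyz2*, *Nfatc3*, *Bst2*, *Cyp51*, *Msmo1*, *Itgal*, *Itgae*, *Hk2*, *H2-K1*, *B2m* and *Tcf12*. *Ptcra*, *H2-Ab1*, *Hspa5*, *H2-Aa*, *Gzmb* and *C1qb* lost their call under other settings only. Arrays limit precision by their number, with 7 residual degrees of freedom.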

Other observations

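Several gene groups not described above also held genes that differed between CD69+ and CD69- DP cells. Over all genes tested 5.54% rose and 8.35% fell. Of the genes named below, *H2-K1* and *Itgae* also stand in the list of surface genes tied to selection. Of 13 interferon-stimulated genes 5 rose and 1 fell (median log2 +0.32, beside +0.01 over all genes): *Isg15*, an antiviral ubiquitin-like protein, rose from 59.9, 88.3 and 114 to 115, 152 and 239 (log2 +0.87, SE 0.17, adjusted p = 0.00208) and *Irf7*, an interferon regulatory factor, by log2 +0.47, whereas *Bst2*, a membrane protein that tethers virions, fell by 0.53 on the log2 scale. MHC class I genes moved with them, 6 of 11 rising and 1 falling (median log2 +0.33), with the heavy chain *H2-K1* at log2 +0.52 and the light chain *B2m* at +0.49. Among 12 integrin chains 4 rose and 2 fell: *Itgal*, the alpha chain of LFA-1, rose by log2 +0.47 and *Itgae*, which binds E-cadherin on epithelium, by +0.46, while the laminin receptor chain *Itga6* fell by 0.67. Of 11 genes of innate-like T-cells 6 rose and 0 fell (median log2 +0.28), led by the signalling chain *Fcer1g* (log2 +0.98, adjusted p = 3.48e-06) and *Gzmb*, a granzyme (log2 +0.51).

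Metabolic genes showed smaller changes. Over all genes tested 5.54% rose and 8.35% fell. Of 17 cholesterol synthesis genes 5 rose and 1 fell, with *Cyp51* and *Msmo1* highest at log2 +0.57 and +0.38. Glucose transport and glycolysis genes rose in 4 of 12 cases and fell in 0, *Hk2*, a hexokinase, by log2 +0.37. Of 9 chaperone genes 4 rose and 0 fell, with *Hspa5* (BiP), a chaperone of the endoplasmic reticulum, at log2 +0.57 and *Hsph1* at +0.57. In a list of 12 genes of regulatory T-cells and agonist selection 6 rose and 2 fell, but the largest rise and the largest fall were *Ikzf2* and *Nrp1*, already given, and *Pdcd1* and *Nfkbid* also stand in other lists.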
